A study of Mus musculus with 12 samples.

Results

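A group of 6 genes of the receptor system for immunoglobulin G (IgG) was followed across RNA-seq libraries of cultured bone marrow cells, namely the activating receptor chains *Fcgr1*, *Fcgr3* and *Fcgr4*, the inhibitory receptor *Fcgr2b*, the shared signalling chain *Fcer1g* and the neonatal Fc receptor *Fcgrt*. They were selected by gene symbol, with earlier results of these data known, and are 6 of the 54532 genes in the count table. All 6 passed the filter on low counts and are among the 14894 genes tested. Bone marrow cells of wild-type (WT) C57BL/6 mice were kept in medium with GM-CSF and IL-6, cytokines that drive myeloid differentiation, and were harvested on day 5. The 3 groups had 4 libraries each. They received 0.1% DMSO (vehicle), 10 µM indole-3-propionic acid (IPA, a tryptophan metabolite made by gut bacteria) or 50 µM IPA, and the comparisons ask how each dose changes RNA levels during myeloid differentiation in culture. The labels name the cells only as bone marrow cells, no cell type was isolated before RNA extraction, and the sources used here do not say whether the 4 libraries of a group came from separate mice. The p-values therefore measure the spread between these libraries, which may be technical.

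Fc gamma receptors bind the constant part of IgG and tell phagocytes that a particle or immune complex is coated with antibody. The activating receptors depend on the Fc receptor gamma chain, the product of *Fcer1g*, whose immunoreceptor tyrosine-based activation motif (ITAM) is phosphorylated by Src family kinases and recruits the kinase Syk. The inhibitory receptor encoded by *Fcgr2b* carries an inhibitory motif (ITIM) instead and recruits the phosphatase SHIP, and the neonatal Fc receptor FcRn, a partner of beta-2-microglobulin, binds IgG inside endosomes and saves it from degradation.

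The libraries held 20451312 to 28038612 counted reads, and the totals of the 3 groups overlapped. Levels are given as counts per 1000000 counted reads (CPM) after TMM normalization of the library totals. The myeloid markers *Ptprc*, *Itgam*, *Spi1*, *Lyz2* and *Cd33* were present in every library, with summed levels of 7047 to 7547 CPM with vehicle, 8114 to 9017 CPM at 10 µM and 8287 to 10080 CPM at 50 µM, most of it from *Lyz2* (5307, 6437 and 6916 CPM in group means). At 50 µM against vehicle 2 of the 5 were called higher (edgeR adjusted p under 0.05), beside 7.00% of all genes, and 1 lower, beside 6.50%, with a median log2 fold change of -0.12. None of the 5 was called in the other comparisons. In RNA from mixed cells, fewer cells that express a gene and less of its RNA per cell cannot be told apart.

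The genes lie at 3 places in the genome (GRCm38). *Fcgr2b* (ENSMUSG00000026656, chr1:170958617-170976547), *Fcgr4* (ENSMUSG00000059089, chr1:171018920-171029761), *Fcgr3* (ENSMUSG00000059498, chr1:171051174-171064935) and *Fcer1g* (ENSMUSG00000058715, chr1:171229572-171234365) follow each other on chromosome 1, with *Fcgr4* on the plus strand and the other 3 on the minus strand. *Fcgr1* (ENSMUSG00000015947, chr3:96282909-96293969) and *Fcgrt* (ENSMUSG00000003420, chr7:45092990-45103851) are on the minus strands of chromosomes 3 and 7. The antisense gene *Gm38204* shares 155 exon bases with *Fcgr2b* but had only 0 to 17 counts per library.

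*Fcgr2b* and *Fcgr3* are near-identical over part of their coding sequence, and reads that lie wholly inside a shared stretch cannot be assigned to either gene. Of all 50-base windows of the longest GENCODE M21 coding transcript, 12.8% for *Fcgr3* and 4.75% for *Fcgr2b* occur in a transcript of the other gene. By this count no other pair of the 6 genes shares a window of this length. The longest shared run has 129 bases and spans an exon junction in both genes, from 102 bases in one exon (chr1:170967980-170968081 in *Fcgr2b*, chr1:171057691-171057792 in *Fcgr3*) into 27 bases of the next (chr1:170966674-170966700 and chr1:171054167-171054193). It is printed because it marks where the counts of the inhibitory and the activating gene are least certain.
Fcgr2b and Fcgr3 shared run: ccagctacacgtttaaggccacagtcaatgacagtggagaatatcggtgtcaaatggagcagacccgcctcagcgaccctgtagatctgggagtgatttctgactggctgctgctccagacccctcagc

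The promoters of the genes with the largest falls at 50 µM, *Fcgr1* and *Fcgrt*, are shown with that of *Fcgr4*, the other gene of the 6 with a motif match. Each is the 250 bases before a RefSeq start site (GRCm38.p6): chr3:96293970-96294219 for *Fcgr1* and chr7:45103823-45104072 for *Fcgrt* on the minus strand, and chr1:171018676-171018925 for *Fcgr4* on the plus strand. Capitals mark the motif matches, which were searched on both strands.
Fcgr1: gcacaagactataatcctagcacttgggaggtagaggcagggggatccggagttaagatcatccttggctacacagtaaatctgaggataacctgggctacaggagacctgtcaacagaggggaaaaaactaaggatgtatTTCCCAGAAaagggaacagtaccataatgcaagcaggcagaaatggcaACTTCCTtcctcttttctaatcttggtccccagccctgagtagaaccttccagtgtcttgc
Fcgr4: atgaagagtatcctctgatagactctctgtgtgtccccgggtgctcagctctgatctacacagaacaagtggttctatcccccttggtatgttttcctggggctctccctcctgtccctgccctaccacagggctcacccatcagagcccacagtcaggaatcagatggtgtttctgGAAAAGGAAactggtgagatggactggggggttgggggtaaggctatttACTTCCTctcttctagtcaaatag
Fcgrt: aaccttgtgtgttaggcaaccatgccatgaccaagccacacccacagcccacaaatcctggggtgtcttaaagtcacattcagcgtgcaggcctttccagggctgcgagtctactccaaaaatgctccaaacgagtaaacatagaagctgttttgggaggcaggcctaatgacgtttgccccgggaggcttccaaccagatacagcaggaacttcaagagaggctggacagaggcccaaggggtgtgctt

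The *Fcgr1* promoter holds one match to TTCNNNGAA, the form of the gamma-activated sequence that STAT dimers bind, starting 109 bases before the start site, and one to AGGAAGT, a core site of the myeloid factor PU.1, on the reverse strand. The *Fcgr4* promoter holds a match to GAAANNGAA, part of the interferon-stimulated response element, and a PU.1 core on the reverse strand. None of the 4 motifs searched, the last being the ATF4 and C/EBP element TGATGNAA, occurs in the windows of *Fcgrt*, *Fcgr2b*, *Fcgr3* or *Fcer1g*. Of 32851 mouse promoters of the same length, 7.02% hold TTCNNNGAA, 7.69% AGGAAGT, 7.13% GAAANNGAA and 3.45% TGATGNAA, and a match is a description of the sequence and not a binding site.

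To compare levels between genes, CPM was divided by the summed exon length in kilobases. With vehicle, *Fcer1g* was the most abundant of the 6 genes at 448.2 ± 49.2 CPM per kb (SD, n = 4), above 99.4% of the genes with a length. *Fcgr3* followed at 324.2 ± 28.03 CPM per kb and *Fcgr2b* at 71.9 ± 1.75, with *Fcgr1* at 44.7 ± 2.51 CPM per kb. These 4 levels did not overlap between genes in any group. *Fcgrt* (10.1 ± 0.85 CPM per kb) and *Fcgr4* (9.68 ± 1.58) were the least abundant, and their vehicle ranges overlapped per kb of exon. The level of *Fcgr2b* moved with the length used, since its annotated exons sum to 5790 bases while its median coding transcript has 1520. Per kb of the median coding transcript *Fcgr2b* stood at 274.0 ± 6.68 CPM per kb with vehicle, in the same place below *Fcgr3* (425.1 ± 36.7). The order of *Fcgrt* and *Fcgr4* also turned on the length. Per kb of the median coding transcript *Fcgrt* was above *Fcgr4* with vehicle without overlap (16.0 to 19.6 against 8.46 to 12.0 CPM per kb). At 50 µM *Fcgr4* was above *Fcgrt* without overlap per kb of exon (10.6 to 11.9 against 6.05 to 7.14 CPM per kb), while per kb of the median coding transcript the ranges overlapped (10.6 to 11.9 against 10.7 to 12.6).

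At 10 µM IPA none of the 6 genes passed an adjusted p of 0.05 against vehicle. By edgeR's quasi-likelihood test with Benjamini-Hochberg adjustment across the whole table, 0 of 6 were called, beside 0.410% of all genes. DESeq2 and limma-voom also called 0 of 6, beside 250 and 63 of all 14894 genes. One gene, *Fcgr3*, had an unadjusted p under 0.05 by each of the 3 tools, as did 1308 of the 14894 genes tested by edgeR, 1367 by DESeq2 and 1338 by limma-voom. No gene of the 6 had separate ranges in the groups, against 6.13% of all genes. The median log2 fold change of the 6 genes was 0.10, and that of all genes tested was -0.01.

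The paper reports slightly reduced cell viability in this culture system at the higher dose, which it calls supraphysiological. For that reason the authors focused their own RNA-seq analysis on the lower dose. Whether the reduced viability bears on the changes at the higher dose was not tested. At 50 µM IPA, *Fcgr1*, the high-affinity activating receptor, and *Fcgrt*, the endosomal IgG receptor, were lower than with vehicle. *Fcgr1* fell by 30.3%, and *Fcgrt* fell by 36.5%. Both lie outside the chromosome 1 cluster. A link to location was not tested, and *Fcgr2b*, inside the cluster, was called lower between the doses. *Fcgr1* and *Fcgrt* are 2 of 6 genes called lower, beside 6.50% of all genes called lower. Of the 6, 0 were called higher, beside 7.00% of all genes. Ranges lay wholly below vehicle for 3 of 6 genes, the third being *Fcgr2b*, beside 10.5% of all genes, and wholly above it for 0 of 6, beside 9.45% of all genes. The median log2 fold change of the 6 was -0.03, and that of all genes tested was 0.01. DESeq2 and limma-voom also called 2 of the 6 lower and none higher. Over all 14894 genes, DESeq2 called 1292 lower and 1262 higher, and limma-voom 979 lower and 1039 higher. The edgeR counts over all genes, 968 lower and 1042 higher, were 568 and 680 without vehicle replicate 3 and 638 and 675 without 50 µM replicate 2. Without vehicle replicate 4 they rose to 1289 lower and 1400 higher.

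Between the doses, *Fcgr1*, *Fcgrt* and *Fcgr2b* were lower at 50 µM than at 10 µM. They are 3 of 6 genes called lower, where 7.85% of all genes were, and none was called higher, where 7.52% of all genes were. The same 3 genes had ranges wholly below those at 10 µM (10.9% of all genes), and none had ranges wholly above (9.43% of all genes). The median log2 fold change of the 6 was -0.12, and that of all genes tested was 0.01. The comparisons share libraries, with the vehicle group in the comparisons of each dose with vehicle and the 50 µM group in those of 50 µM, and so are not independent of each other.

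**Figure D1:**
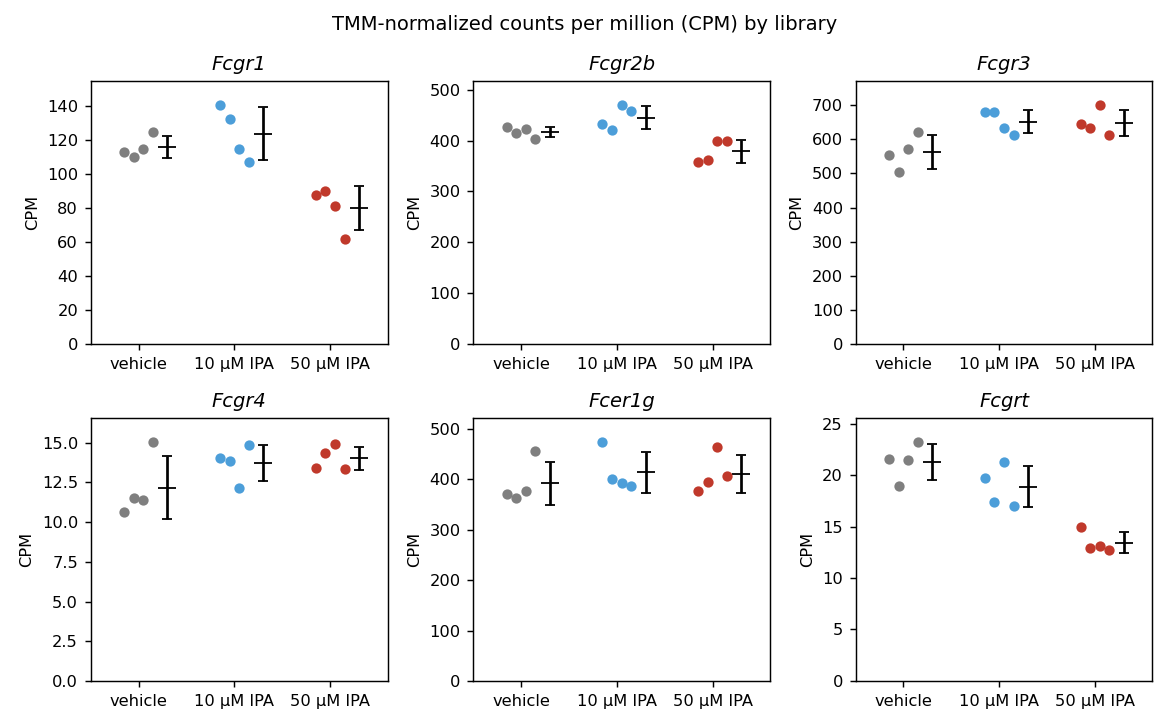
TMM-normalized CPM (linear axes from 0) of the 6 genes in each library, by group, with the mean and SD of the 4 libraries in black. All 4 libraries at 50 µM IPA lie below all others for *Fcgr1*, *Fcgr2b* and *Fcgrt*, while all groups overlap for *Fcer1g*, and for *Fcgr3* and *Fcgr4* the IPA groups overlap each other and 1 vehicle library reaches their levels.

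Among the activating receptors, *Fcgr1* fell at the higher dose. In the vehicle libraries *Fcgr1* stood at 113.2, 109.9, 114.8 and 124.9 CPM, at 10 µM at 140.7, 132.4, 114.6 and 106.9 CPM, and at 50 µM at 87.8, 90.2, 81.1 and 61.7 CPM. The 10 µM libraries lay on both sides of the vehicle libraries, and every 50 µM library was below every other library. The group means were 115.7 ± 6.49, 123.6 ± 15.6 and 80.2 ± 12.9 CPM (SD, n = 4 each). The log2 fold change from edgeR's quasi-likelihood test was 0.10 (SE 0.09, adjusted p = 0.861) at 10 µM against vehicle and -0.52 (SE 0.11, adjusted p = 0.00625) at 50 µM. Between the doses *Fcgr1* fell by 34.97% (edgeR log2 fold change -0.62, SE 0.11, adjusted p = 0.00132). Both calls remained without any single library.

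*Fcgr3*, the low-affinity activating receptor of myeloid cells and by far the most abundant activating chain, did not pass the test in any comparison. It stood at 554.4, 503.4, 572.4 and 621.2 CPM with vehicle, at 680.5, 678.7, 633.4 and 612.3 CPM at 10 µM and at 645.2, 633.6, 700.5 and 611.4 CPM at 50 µM. A single vehicle library, replicate 4, reached into the range of both IPA groups, and the IPA groups overlapped. The edgeR log2 fold change was 0.21 at either dose against vehicle (SE 0.07, unadjusted p = 0.0135 and adjusted p = 0.356 at 10 µM, and SE 0.08, 0.0202 and 0.102 at 50 µM). Without vehicle replicate 4, *Fcgr3* passed at 50 µM (log2 fold change 0.26, edgeR adjusted p = 0.021).

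*Fcgr4*, an activating receptor of monocytes, macrophages and neutrophils, was near the bottom of the 6 genes. Its levels were 10.6, 11.6, 11.4 and 15.1 CPM with vehicle, 14.1, 13.8, 12.1 and 14.8 CPM at 10 µM and 13.4, 14.3, 14.9 and 13.4 CPM at 50 µM. As for *Fcgr3*, vehicle replicate 4 was high and the other 3 vehicle libraries were below every IPA library. The edgeR log2 fold change was 0.17 at 10 µM (SE 0.12, adjusted p = 0.793) and 0.21 at 50 µM (SE 0.12, adjusted p = 0.286). Without vehicle replicate 4 it was 0.33 at 50 µM (adjusted p = 0.0498). Counts of *Fcgr4* lay between 254 and 391 per library, and the SEs were the largest of the 6 genes in both comparisons with vehicle.

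The inhibitory receptor *Fcgr2b* had the smallest spread for its level with vehicle (coefficient of variation 2.44%), at 425.7, 415.4, 422.1 and 402.6 CPM. It stood at 432.6, 420.0, 469.8 and 457.9 CPM at 10 µM and at 356.9, 361.6, 398.5 and 398.7 CPM at 50 µM. The 50 µM libraries were below all others, but the highest of them, at 398.7 CPM, came close to the lowest vehicle library, at 402.6 CPM. *Fcgr2b* did not pass against vehicle at 10 µM (edgeR log2 fold change 0.10, SE 0.06, adjusted p = 0.722) or at 50 µM (-0.13, SE 0.07, adjusted p = 0.238). Between the doses it fell by 14.7% (edgeR log2 fold change -0.23, SE 0.06, adjusted p = 0.0235). This call was lost without 10 µM replicate 3 (adjusted p = 0.0845), 10 µM replicate 4 (0.0516), 50 µM replicate 1 (0.0674) or 50 µM replicate 2 (0.0827).

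The signalling chain *Fcer1g* did not pass the test in any comparison. It was at 369.9, 363.6, 377.7 and 455.6 CPM with vehicle, at 474.7, 401.1, 391.8 and 387.3 CPM at 10 µM and at 375.9, 394.9, 464.2 and 405.7 CPM at 50 µM. Each group held one library well above its other 3, and the 3 groups overlapped throughout. The edgeR log2 fold change was 0.08 at 10 µM (SE 0.09, adjusted p = 0.894), 0.07 at 50 µM (SE 0.09, adjusted p = 0.651) and -0.01 between the doses (SE 0.08, adjusted p = 0.959).

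*Fcgrt*, which encodes the heavy chain of FcRn, showed the largest fall of the 6 genes against vehicle. It was at 21.5, 18.9, 21.5 and 23.3 CPM with vehicle, at 19.7, 17.4, 21.3 and 17.0 CPM at 10 µM and at 15, 12.9, 13.2 and 12.7 CPM at 50 µM. The 10 µM libraries overlapped with vehicle, and all 50 µM libraries were below all others. The means were 21.3 ± 1.78, 18.9 ± 2.02 and 13.5 ± 1.05 CPM (SD, n = 4 each). The edgeR log2 fold change was -0.17 at 10 µM (SE 0.10, adjusted p = 0.712) and -0.66 at 50 µM (SE 0.10, adjusted p = 0.000929). From 10 µM to 50 µM *Fcgrt* fell by 28.8% (edgeR log2 fold change -0.49, SE 0.10, adjusted p = 0.00488). Leaving out any one library kept both calls. *B2m*, which encodes the light chain of FcRn and of MHC class I molecules, stood at 890.4 ± 134.1, 1006 ± 124 and 833.7 ± 79.7 CPM with vehicle, 10 µM and 50 µM. It passed the test only between the doses (edgeR log2 fold change -0.27, adjusted p = 0.0466).

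**Figure D2:**
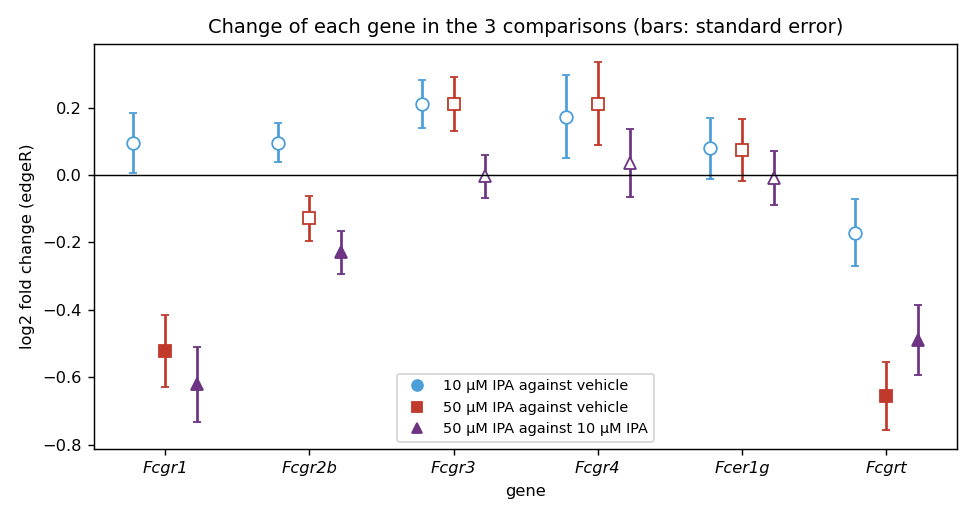
Log2 fold change of each gene from edgeR in the 3 comparisons, with its standard error as a bar, and filled symbols where the adjusted p was under 0.05. Filled symbols appear for *Fcgr1* and *Fcgrt* in both comparisons of 50 µM and for *Fcgr2b* only between the doses, all below 0.

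The makeup of the activating receptor RNA differed at 50 µM. The ratio of *Fcgr1* to *Fcgr3*, per kb of exon, was 0.137, 0.146, 0.134 and 0.135 with vehicle and 0.139, 0.131, 0.121 and 0.117 at 10 µM. At 50 µM it was 0.0912, 0.0955, 0.0777 and 0.0677, below every other library. *Fcgr1* made up 11.8% ± 0.41 of the summed activating chains with vehicle, 11.0% ± 0.76 at 10 µM and 7.45% ± 1.06 at 50 µM (SD, n = 4), as shares of CPM per kb of exon. The sum of the activating chains itself overlapped between the groups, at 378.6 ± 31.6, 433.8 ± 25.5 and 415.2 ± 24.6 CPM per kb. These ratios combine genes described above and were not tested.

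The ratio of inhibitory to activating receptor RNA, *Fcgr2b* over the sum of *Fcgr1*, *Fcgr3* and *Fcgr4* per kb of exon, was 0.191 ± 0.018 with vehicle, 0.178 ± 0.019 at 10 µM and 0.158 ± 0.014 at 50 µM (SD, n = 4). The size of this ratio rests on the length used: it was 0.575, 0.534 and 0.470 per kb of the median coding transcript and 0.606, 0.567 and 0.512 with no length. By library, per kb of exon, it was 0.198, 0.210, 0.190 and 0.166 with vehicle, 0.163, 0.160, 0.194 and 0.195 at 10 µM, and 0.148, 0.152, 0.154 and 0.178 at 50 µM. All 3 groups overlapped, with 3 of the 4 libraries at 50 µM below all libraries of the other groups. The signalling chain stood near the level of the activating chains on this scale, with a ratio of *Fcer1g* to their sum of 1.18 ± 0.06, 1.09 ± 0.07 and 1.13 ± 0.08, and the groups overlapped. With no length it was 0.567, 0.524 and 0.553.

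**Figure D3:**
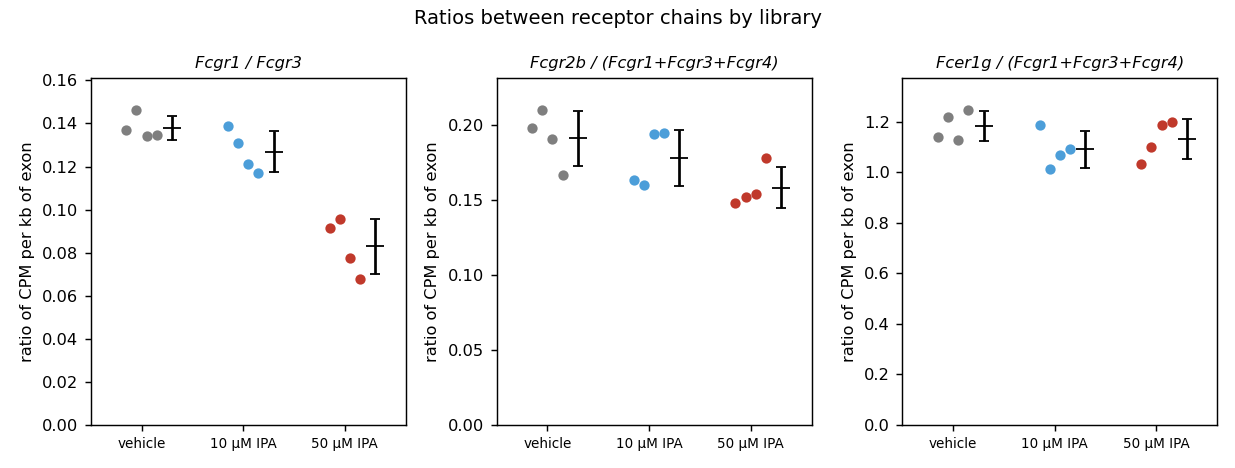
Ratios of CPM per kb of exon in each library (linear axes from 0) for *Fcgr1* over *Fcgr3*, *Fcgr2b* over the summed activating chains and *Fcer1g* over the same sum, with the mean and SD of the 4 libraries of a group in black. The 50 µM libraries stand below all others only in the first ratio, at 0.0677 to 0.0955.

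Around the receptors, the list of ITAM signalling genes (kinases, adaptors and lipases that act below the gamma chain) had 20 genes tested. None was called at 10 µM. At 50 µM against vehicle 4 of 20 were lower, beside 6.50% of all genes, and none was higher, beside 7.00%, with a median log2 fold change of -0.01 for the list and 0.01 for all genes. The Src family kinase *Lyn* went from 226.2 ± 17.0 to 177.7 ± 6.58 CPM (edgeR log2 fold change -0.34, adjusted p = 0.00829) and the exchange factor *Vav1* from 232.8 ± 13.2 to 183.1 ± 11.0 CPM (-0.34, 0.0073). *Syk*, the kinase that docks to the phosphorylated ITAM, fell as well (-0.27, adjusted p = 0.0479), as did the phospholipase *Plcg2* (-0.25, 0.0371). Between the doses, where 7.85% of all genes were called lower and 7.52% higher, 4 genes of the list were lower, among them *Lyn*, *Vav1* and *Src* with edgeR log2 fold changes of -0.29, -0.25 and -0.50, and 2 were higher, among them *Pik3cd* (0.25). The kinase *Prkcd*, the most abundant of the list, was at 653.2 ± 109.5 CPM with vehicle and 661.9 ± 47.8 CPM at 50 µM.

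Of the 10 effectors of inhibitory receptors, none was called at 10 µM (0.410% of all genes were). At 50 µM against vehicle 2 were higher, beside 7.00% of all genes, and 1 lower, beside 6.50%. *Inppl1*, which encodes the phosphatase SHIP2, went from 31.9 ± 4.82 CPM with vehicle to 38.6 ± 1.203 CPM at 10 µM and 58.7 ± 4.48 CPM at 50 µM, with no overlap between 50 µM and the other groups (edgeR log2 fold change at 50 µM 0.89, SE 0.11, adjusted p = 0.000163). The adaptor *Dok1* rose as well (0.51, adjusted p = 0.00328), and *Pag1*, an anchor of the kinase Csk, fell (-0.29, 0.0282). *Inpp5d*, which encodes the SHIP phosphatase that Fcgr2b recruits, did not pass (-0.20, adjusted p = 0.0763). Between the doses *Inppl1* (0.61) and *Dok1* (0.44) were higher and none lower, beside 7.52% and 7.85% of all genes. The phosphatase *Ptpn6* was the most abundant, at 418.8 ± 32.0 CPM with vehicle and 397.0 ± 4.68 CPM at 50 µM. The median log2 fold change of the list at 50 µM against vehicle was -0.04.

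Among 18 genes of the actin machinery of phagocytosis, none was called at 10 µM and 1 was lower at 50 µM against vehicle, a share near the 6.50% of all genes called lower. This gene was *Was*, an activator of actin branching, which went from 158.6 ± 7.09 to 125.2 ± 7.33 CPM (edgeR log2 fold change -0.33, adjusted p = 0.00757). Between the doses *Was* (-0.28), the actin-severing protein gene *Gsn* (-0.28) and the GTPase gene *Rac1* (-0.24) were lower, beside 7.85% of all genes, and none was higher. *Actr3*, the most abundant, was at 1066 ± 93 CPM with vehicle and 983 ± 51 CPM at 50 µM. The list's median at 50 µM against vehicle was -0.07.

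Other receptors that signal through the gamma chain were counted as well, 8 of the 12 listed being tested, and the symbols *Pira1*, *Pira6* and *Pira11* were not matched. At 10 µM none was called. At 50 µM against vehicle 2 were lower, beside 6.50% of all genes. *Pira2*, a paired immunoglobulin-like receptor, fell from 27.0 ± 4.83 to 17.3 ± 1.63 CPM (edgeR log2 fold change -0.64, adjusted p = 0.0049), and *Clec4e*, which encodes the lectin Mincle, fell from 208.8 ± 18.5 to 162.5 ± 18.3 CPM (-0.36, 0.0214). Between the doses *Pira2* (-0.94), *Clec4e* (-0.40) and *Lilra6* (-0.30) were lower, beside 7.85% of all genes, with none higher in either comparison. *Pira2* and *Lilra6* belong to a family of similar genes, so their counts are uncertain. The most abundant partner, the lectin gene *Clec4n*, was at 1095 ± 96 CPM with vehicle and 1059 ± 142 CPM at 50 µM, and the list's median at 50 µM against vehicle was -0.13. The other ITAM adaptors *Tyrobp*, *Hcst* and *Cd247* were called in no comparison by edgeR, and *Tyrobp* was at 361.0 ± 45.2, 378.0 ± 28.7 and 415.1 ± 59.0 CPM in the 3 groups.

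Of the other Fc receptor genes, 9 of 12 were tested and *Pigr* had no count. None was called at 10 µM. At 50 µM against vehicle 4 of 9 were higher, beside 7.00% of all genes, and between the doses 1 of 9 was, beside 7.52%, with none lower in either comparison. *Fcer2a*, the low-affinity IgE receptor, *Fcmr*, the IgM receptor, and *Fcrla*, genes known from B cells, went from 0.789 to 2.24, from 3.34 to 5.11 and from 2.30 to 4.20 CPM in group means (edgeR log2 fold changes 1.51, 0.62 and 0.87, adjusted p = 0.00708, 0.0376 and 0.0312). *Fcrls* went from 27.1 ± 8.12 to 41.3 ± 2.68 CPM (0.62, 0.0247). The median of the list at 50 µM against vehicle was 0.23.

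**Figure D4:**
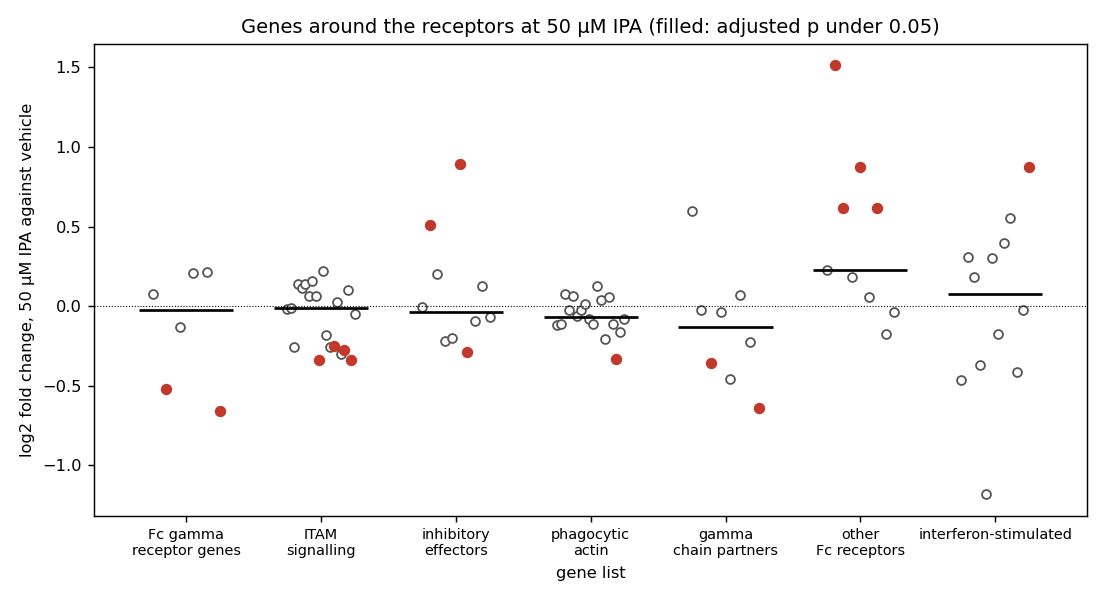
Log2 fold change at 50 µM IPA against vehicle (edgeR) for the 6 Fc receptor genes and for 6 lists around them, 1 point per gene tested, with a black line at each median and red where the adjusted p was under 0.05. The red points of the ITAM signalling, phagocytic actin and gamma chain partner lists lie below 0, those of the other Fc receptors above 0, and those of the inhibitory effectors on both sides.

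*Fcgr1* is known as a gene induced by interferon, and 12 interferon-stimulated genes were counted beside it. None was called at 10 µM. At 50 µM against vehicle 1 of 12 was higher, a share near the 7.00% of all genes called higher. This was *Usp18* (8.08 ± 1.17 to 14.7 ± 2.98 CPM, edgeR log2 fold change 0.87, adjusted p = 0.00286), and none was lower. Between the doses, beside 7.52% of all genes higher and 7.85% lower, 2 were higher, *Usp18* (0.57) and *Irf1* (0.39), and 3 lower, among them *Ifit3* (-1.37) and *Rsad2* (-0.66). The most abundant, the GTPase gene *Gbp2*, was at 41.7 ± 3.51 CPM with vehicle and 51.2 ± 9.52 CPM at 50 µM. The median of the list was 0.08 at 50 µM against vehicle and -0.12 between the doses.

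Markers of cell types that carry these receptors moved between the groups, and their part in the levels of the 6 genes was not tested. For the 6 monocyte markers the summed level was 2688 to 3426 CPM with vehicle, 3839 to 4927 CPM at 10 µM and 2419 to 3122 CPM at 50 µM, of which *Fn1* held 1451, 2554 and 1696 CPM in group means. At 10 µM 1 marker, *Fn1*, was called higher (edgeR adjusted p = 0.0102), beside 0.410% of all genes called. At 50 µM 3 were lower than vehicle, beside 6.50% of all genes, and 5 were lower than at 10 µM, beside 7.85%. *Ccr2*, the chemokine receptor of classical monocytes, was at 346.9, 505.1 and 204.0 CPM in the 3 groups. Its difference between 10 µM and vehicle did not pass (edgeR adjusted p = 0.0975). The 10 macrophage markers summed to 1737 to 1946, 2081 to 2285 and 1761 to 1883 CPM, with 3 called higher at 10 µM, beside 0.410% of all genes called. At 50 µM 2 were called higher and 3 lower than vehicle, beside 7.00% and 6.50% of all genes, and 1 was higher and 7 lower than at 10 µM, beside 7.52% and 7.85%. Macrophage markers did not move one way: *Adgre1* went from 203.2 CPM with vehicle to 324.0 CPM at 50 µM, and *Mrc1* from 152.8 to 94.0 CPM.

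The 10 neutrophil markers summed to 21180 to 29470 CPM with vehicle, 20030 to 22960 CPM at 10 µM and 16010 to 21610 CPM at 50 µM, with none called at 10 µM. In each comparison of 50 µM 1 was higher and 4 lower, beside 7.00% and 6.50% of all genes against vehicle and 7.52% and 7.85% between the doses. B cells carry *Fcgr2b* as their only Fc gamma receptor. The summed level of 8 B cell markers was 20.2 to 29.1, 26.2 to 36.7 and 41.6 to 66.5 CPM, with none called at 10 µM and 6 of 8 called higher at 50 µM in both comparisons, beside 7.00% and 7.52% of all genes. Of 8 natural killer cell markers, 2 were tested and none called (summed level 10.8 to 17.5, 12.4 to 17.7 and 10.6 to 16.4 CPM). The 8 mast cell and basophil markers, cells in which *Fcer1g* is part of the IgE receptor, summed to 255.4 to 304.6, 208.6 to 282.8 and 294.1 to 337.9 CPM. None of these was called at 10 µM and 1 was higher at 50 µM against vehicle, *Gata2* (46.1 to 101.5 CPM), and 2 were higher between the doses, beside 7.00% and 7.52% of all genes. The basophil protease gene *Mcpt8* went from 99.1 to 76.0 CPM (edgeR log2 fold change -0.37, adjusted p = 0.0691), and the IgE receptor chains *Ms4a2* and *Fcer1a* stood at 21.4 and 6.29 CPM with vehicle and at 18.8 and 7.31 CPM at 50 µM.

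The genes whose pattern over the 12 libraries was most like that of each receptor were found among 8920 other genes that averaged at least 10 CPM, by the root mean square difference of centred log2 CPM. For *Fcgr1*, whose log2 levels had an SD of 0.32, they were *H2-Ab1*, an MHC class II chain (difference 0.10), *P2ry12* (0.10) and *Ino80c* (0.10). *H2-Ab1* was at 647.2, 675.7 and 476.3 CPM in the 3 groups. For *Fcgrt* (SD 0.30) they were the kinase gene *Pak1* (0.09), *Galnt3* (0.11) and *Tuba4a* (0.11), and *Pak1* was at 83.0, 70.6 and 51.6 CPM. The other 4 genes varied less, with SDs of 0.11 to 0.16. Nearest to *Fcgr3* were *Pttg1ip* (0.05), the lysosomal membrane gene *Lamp2* (0.05) and *Fkbp1a* (0.05), and *Lamp2* was at 491.6, 540.4 and 554.4 CPM. Nearest to *Fcgr2b* were *Etfdh*, *Sp100* and *Slc36a4* (0.05 to 0.06), to *Fcgr4* *Sf3b5*, *Rnaseh2a* and *Dtd2* (0.07 to 0.09), and to *Fcer1g* *Sugt1*, *Mydgf* and *Arpc3* (0.04 to 0.05). All 12 libraries enter these differences, so a gene that changes with the dose by the same factor comes out as near.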

How the data were processed

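Stranded mRNA libraries were sequenced. The authors trimmed the reads, aligned them to mm10 with HISAT2 (2.2.1) and summed them over Ensembl genes with featureCounts (2.0.1). The deposited values are raw counts without normalization, and the strand setting was not given in the sources used here. Groups and replicate numbers came from the labels, except that the 3rd library at 10 µM, whose title repeats that of the 2nd, was identified by its library name. Genes above 0.5 CPM in at least 2 of 12 libraries were tested in 3 comparisons of 8 libraries each with edgeR 4.0.16 (TMM, quasi-likelihood test, R 4.3.3), with Benjamini-Hochberg adjustment over 14894 genes and a threshold of 0.05. Alternatives were DESeq2 1.42.0, limma-voom (limma 3.58.1), edgeR with the size factors of DESeq2, other filters, an exon length offset, all 12 libraries, a replicate block and leaving out each library. The 6 genes and all lists were chosen with earlier results of these data known. Named genes are the 6, their 3 nearest by pattern, and, from each list, up to 4 with the smallest p per comparison past the threshold and the most abundant. Of the cell marker lists, *Ccr2*, *Adgre1*, *Mrc1*, *Fn1*, *Lyz2*, *Gata2*, *Mcpt8*, *Ms4a2* and *Fcer1a* were chosen after their values were seen, as was *Inpp5d*. Exon lengths and transcripts are those of GENCODE M21, promoters those of RefSeq.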

Additional observations from a re-analysis of the deposited data

Results flagged for a closer look

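Of 30 groups of 4 libraries checked with Dixon's test at 95%, which flags about 1 group in 20 by chance, 2 held a library far from the other 3, both for *Fcer1g*. Vehicle replicate 4 had 455.6 CPM, where the nearest library had 377.7 CPM and the farthest 363.6 CPM. Replicate 1 at 10 µM had 474.7 CPM, where the nearest library had 401.1 CPM and the farthest 387.3 CPM. *Fcer1g* passed the test in no comparison with these libraries or without either.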

How the results depend on the processing

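The calls of *Fcgr1* and *Fcgrt* in both comparisons of 50 µM remained under limma-voom, DESeq2, edgeR with the size factors of DESeq2, other filters, the exon length offset, all 12 libraries in the fit and each library left out. The number of the 6 genes called was 0 against vehicle at 10 µM in every such fit. At 50 µM against vehicle the number ranged from 2 to 4 over the fits with 1 library left out. It reached 4 without vehicle replicate 4, where 2689 of all 14894 genes were called, against 2010 with all libraries. Between the doses it was 2 to 3 over those fits, since *Fcgr2b* lost its call in 4 of 8. Of the fold changes, those near 0 changed sign: *Fcer1g* at 50 µM against vehicle was -0.015 with the exon length offset. Between the doses, with 1 library left out, *Fcgr3* ranged from -0.042 to 0.023, *Fcgr4* from -0.018 to 0.075 and *Fcer1g* from -0.072 to 0.067, on the log2 scale. The cause was not tested. The ratio of *Fcgr2b* to the activating chains was 0.606, 0.567 and 0.512 with vehicle, 10 µM and 50 µM for counts not divided by length. Per kb of the median coding transcript, an alternative added after the data were seen, it was 0.575, 0.534 and 0.470. Over all genes, 61 were called at 10 µM by edgeR, 250 by DESeq2, and 4 to 122 with 1 library left out.

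The correlation of deviations in same-numbered pairs lay between -0.24 and 0.14 and was over 0.1 in 2 of 12 pairs. In differently numbered pairs it reached -0.255 (vehicle replicate 2 with 10 µM replicate 1) and 0.272 (vehicle replicate 4 with 10 µM replicate 1). Such values cannot show whether libraries of different groups were paired. With a replicate block, 0, 2 and 3 of the 6 genes were called in the 3 comparisons, as without it, and over all genes 3, 1830 and 2200. With 4 libraries a group, *Fcgr4* had the largest SEs of the 6 genes against vehicle, and a small change of it could be missed.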
